A study of Mus musculus with 12 samples.

Results

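Interferons are cytokines that cells release on viral infection, and type I and type II interferons act through different receptor pairs on almost every cell type. Signals of the type I receptor (Ifnar1, Ifnar2) reach a promoter element called ISRE, bound by a complex that holds STAT2 and IRF9, and signals of the type II receptor (Ifngr1, Ifngr2) reach an element called GAS. The genes switched on encode antiviral proteins, the immunoproteasome, the TAP peptide transporter and class I molecules, which show peptides at the cell surface together with beta-2-microglobulin. Glucocorticoids are known to dampen interferon responses in immune cells, and the measurements below concern the same genes in cartilage cells without added interferon.

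The genes described are 38 named members of the interferon response and of antigen presentation, taken from a list of gene symbols and not from their values. Of them, 36 had at least 1 probe set that the array annotation gives to that gene alone, Isg15 and Ifi44 had none, and 21 were expressed, which means that 1 of the 4 groups or more had a mean intensity of 50 or above. Of these 21, 16 had a mean of 50 or above in all 4 groups. The array held 18194 such named genes in all, and 60.75% of them were expressed, against 58.33% of the 36 members. Each gene was represented by its probe set with the highest mean intensity among those expressed, and the 41 expressed member probe sets of 71 were also examined one by one.

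Primary chondrocytes came from the tibiae, femurs and humeri of E15.5 embryos of outbred CD1 mice, from 3 independent cell isolations according to the methods. High-density monolayers received 100 nM dexamethasone (DEX, a synthetic glucocorticoid) or DMSO alone (vehicle) for 6 or 24 hrs, and RNA was hybridized to Affymetrix MOE 430 2.0 arrays, 3 arrays in each of 4 groups. All groups shared fresh medium with ascorbic acid and beta-glycerophosphate, the cells having been plated in 10% fetal bovine serum, and no group received an interferon. Replicates carried the numbers 1, 2 and 4, and a DEX and a vehicle array of one number and time point are called a pair. The array record of replicate 4 at 6 hrs numbers it 3, and the number of the sample titles is used here. Sex of the embryos and pooling of embryos were not given in the sources used here.

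All 17 chondrocyte markers examined were expressed, among them Col2a1 with 3765 to 9709 and Acan with 2618 to 6094 over the 12 arrays. Of 25 macrophage and dendritic cell markers 12 passed the minimum, among them Adgre1, Csf1r and Cd68, while Itgam, C1qa, C1qc, Aif1 and Cd163 stayed at or below 29.9 on every array. Kdr alone of 8 endothelial and Cd8a alone of 10 measured lymphocyte markers passed, and all 11 markers of tendon and perichondrial fibroblasts did. The 16 established glucocorticoid targets used to check the treatment had a median log2 difference of 1.51 over both times and 11 of them rose. The 4 arrays of replicates 1 and 2 at 6 hrs, which share a hybridization day, stood apart: the 3′ minus the 5′ Gapdh signal was 0.486 to 0.743 log2 units on them and -0.331 to -0.222 on the other 8.

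The elements named above are shown in their genomic setting for a few members. RefSeq promoters of GRCm38.p6, from 250 bases before to 50 after each start, were at hand for 32 of the 38 members. The ISRE core was searched on both strands as GAAA, any 2 bases and GAAA, where repeats may overlap, and the GAS core as TTCNNNGAA. Each sequence below reads 5′ to 3′ on the strand of the gene, and is a stretch of 80 bases that lies before the start, with every match in capitals. The stretches begin 130 bases before the start for Ifit1, 175 for Ifit3 and B2m, 108 for Isg15, 250 for Stat2 and 126 for Irf1. The first 2 belong to antiviral genes below the minimum here. The third belongs to Isg15, which had no probe set of its own and shared an expressed one with Gm9706. The next 2 belong to expressed genes, and the last holds the GAS letters of Irf1.
Ifit1, chr19:34640759-34640838, + strand: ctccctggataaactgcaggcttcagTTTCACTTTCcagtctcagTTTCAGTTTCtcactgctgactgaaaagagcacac
Ifit3, chr19:34583354-34583433, + strand: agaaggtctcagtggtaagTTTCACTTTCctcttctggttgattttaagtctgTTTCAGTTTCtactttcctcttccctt
Isg15, chr4:156200847-156200926, - strand: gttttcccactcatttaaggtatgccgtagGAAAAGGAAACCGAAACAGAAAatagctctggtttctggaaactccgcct
B2m, chr2:122147512-122147591, + strand: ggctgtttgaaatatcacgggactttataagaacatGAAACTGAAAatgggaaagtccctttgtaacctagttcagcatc
Stat2, chr10:128270248-128270327, + strand: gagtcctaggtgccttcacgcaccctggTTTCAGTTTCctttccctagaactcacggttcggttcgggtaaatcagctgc
Irf1, chr11:53769888-53769967, + strand: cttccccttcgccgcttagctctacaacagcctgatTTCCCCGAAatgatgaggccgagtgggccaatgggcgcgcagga

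The ISRE letters stood in the promoters of 12 of 32 members, or 37.5%, and in 3.99% of all 27025 genes with a promoter entry. Of the expressed members 5 of 20 had them, namely Irf2, Stat2, Oas1a, Bst2 and B2m, and of the members below the minimum 6 of 10, namely Ifih1, Ifit1, Ifit3, Rsad2, Gbp2 and Gbp3, the last of the 12 being Isg15. The GAS letters were found in 9 of 32 members (28.1%) and in 9.55% of all genes, with Irf2, Oas1a and Bst2 holding both elements. The palindromic glucocorticoid response element, AGAACA, any 3 bases and TGTTC, was in no member window and in 0.0518% of all genes, and the AGAACA arm alone, which is part of it, was in 5 members (15.6%) against 21.3% of all genes. These are matches of letters in short windows and describe sequence only.

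None of the 21 expressed members passed the threshold for an effect of DEX. No member gene and none of the 41 member probe sets passed an adjusted p of 0.05 at either time, over both times or for the difference between the time points, in limma with Benjamini-Hochberg adjustment over 20897 expressed probe sets. Of all probe sets tested, 0.225% passed at 6 hrs, 0.287% at 24 hrs and 0.747% across both times, and 0% for the difference. Beside such small shares, the members' count of 0 of 21 did not stand apart from the background. With each pair as a block the background rose to 0.904%, 2.15%, 3.2% and 0.00479%, and the count of members called was 0 again in each. At an unadjusted p under 0.05 the fit without the block gave 0 members at 6 hrs, 4 at 24 hrs, 1 over both times and 1 for the difference, where all probe sets gave 3.66%, 6.24%, 5.65% and 3.63%. With the block it gave 2, 4, 2 and 2 members, where all probe sets gave 11.3%, 17.1%, 14.7% and 12.8%.

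**Figure D1:**
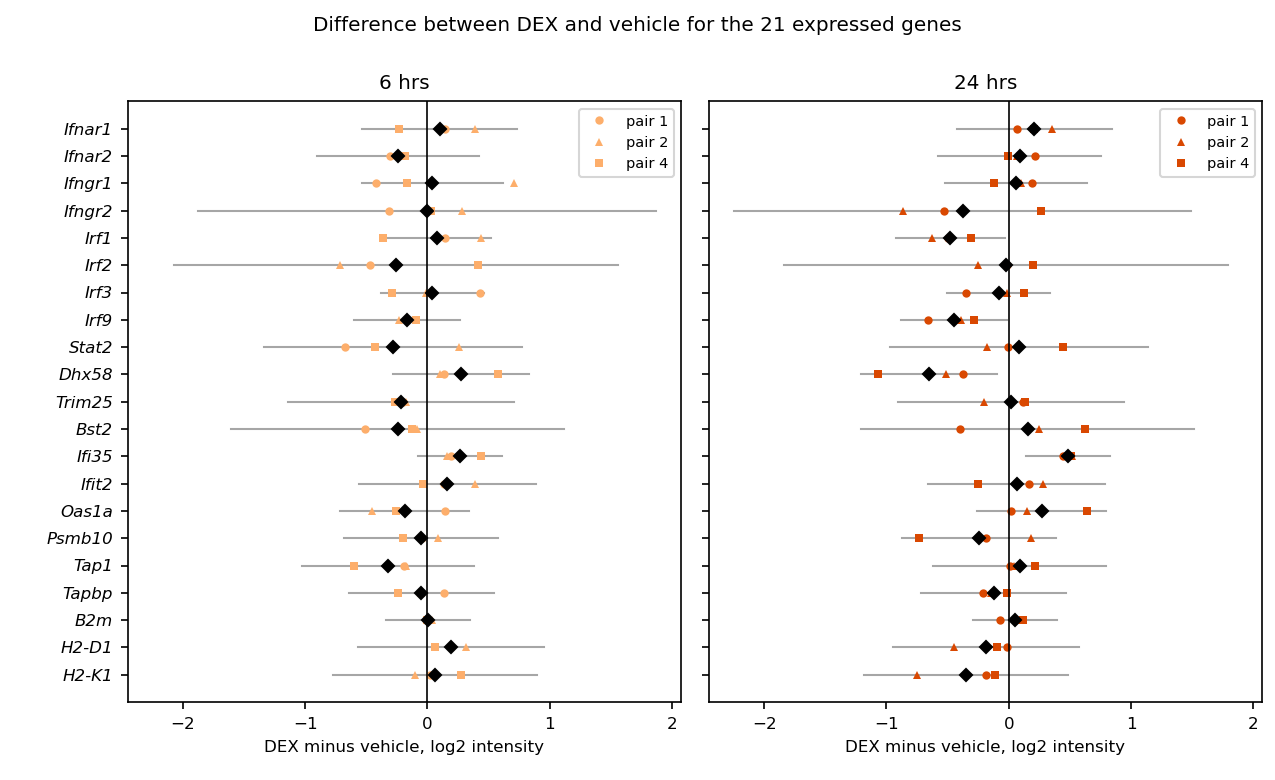
Log2 intensity with DEX minus log2 intensity with vehicle (horizontal axis) for each of the 21 expressed members, at 6 hrs on the left and 24 hrs on the right; small coloured marks are the 3 pairs, black diamonds their mean and grey lines the 95% interval of the limma fit without a block. Most diamonds lie close to 0, and at 24 hrs the intervals of Irf1, Irf9 and Dhx58 lie below 0 and that of Ifi35 above 0.

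The differences were small on the log2 scale. The median over the 21 members was -0.0035 at 6 hrs, 0.017 at 24 hrs and -0.087 across both times, beside -0.0096, -0.030 and -0.019 for all expressed probe sets. Single members ran from -0.32 to 0.27 at 6 hrs and from -0.65 to 0.49 at 24 hrs. The data also bound what was missed: the 95% interval excluded a 2-fold change in either direction for 15 members at 6 hrs, 15 at 24 hrs and 18 across both times, and with the pairs as a block for 21, 20 and 21, Dhx58 at 24 hrs being the exception. At 6 hrs 3 members were higher with DEX in all 3 pairs and 5 lower, where 14.9% and 18.7% of all expressed probe sets were, and at 24 hrs 4 were higher and 6 lower, where 17.7% and 22.6% were. All DEX arrays lay above all vehicle arrays for 1 member at 6 hrs and 1 at 24 hrs, beside 3.04% and 8.45% of all expressed probe sets. They lay below for 0 members at 6 hrs and 3 at 24 hrs, beside 2.96% and 10.9%.

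All 4 receptor chains were expressed, and none passed the test at either time. Ifngr1, the ligand-binding chain for interferon gamma, measured 248, 390 and 300 with DEX and 332, 239 and 336 with vehicle at 6 hrs for replicates 1, 2 and 4. At 24 hrs it measured 219.7, 258 and 320 with DEX and 193, 240.5 and 347 with vehicle, so the groups overlapped at both times. Ifnar1, a chain of the type I receptor, measured 136, 165 and 225 with DEX and 124, 126 and 263 with vehicle at 6 hrs. At 24 hrs Ifnar1 stood at 253, 246 and 237 with DEX and 242, 192 and 205 with vehicle, higher with DEX in all 3 pairs, with a log2 difference of 0.21 (SE 0.29, n = 3 arrays per group, limma adjusted p = 1.00). The representative probe sets of Ifnar2 and Ifngr2 had log2 differences between -0.38 and 0.09 at either time. That of Ifnar2 was lower with DEX in 3 of 3 pairs at 6 hrs, with -0.24. Of its other expressed probe sets 1 was as well, with -0.41, and the other gave -0.09 at 6 hrs. At 24 hrs these 2 gave -0.01 and 0.14. The second expressed probe set of Ifngr2 went the other way at 24 hrs, with 0.43 and higher values with DEX in 3 of 3 pairs, against -0.38 for the first, and neither passed the threshold.

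Of 6 transcription factors, 5 were expressed, and the fit over both times put all 5 below 0, from -0.31 to -0.02, with none past the threshold. Irf1, an interferon-gamma target that activates class I genes, was 245, 261 and 267 with DEX and 346, 403 and 329.7 with vehicle at 24 hrs. All 3 DEX arrays were below all 3 vehicle arrays, and the log2 difference was -0.48 (SE 0.20, limma adjusted p = 0.744). At 6 hrs Irf1 was 188, 262 and 213 with DEX and 170.2, 193 and 274 with vehicle, where the groups overlapped and the log2 difference was 0.07. Irf9, the DNA-binding partner of STAT2, was 83.7, 109 and 128 with DEX and 132, 143 and 156 with vehicle at 24 hrs, again without overlap, with a log2 difference of -0.44 (SE 0.20, limma adjusted p = 0.785). At 6 hrs Irf9 was 87.04, 99.7 and 119 with DEX and 98.05, 117 and 127 with vehicle. Irf9 was the only expressed member lower with DEX in 6 of 6 pairs, a pattern that 4.71% of all expressed probe sets showed. With the pairs as a block its adjusted p was 0.112 at 24 hrs and 0.116 across both times, and that of Irf1 was 0.203 at 24 hrs. The expressed probe set shared by Isg15 and Gm9706, which is attributed to neither, was also lower with DEX in 6 of 6 pairs. Its group mean was 52.08 under DEX against 73.8 under vehicle at 6 hrs, then 42.17 against 61.61 at 24 hrs. Its DEX and vehicle arrays overlapped at both times.

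Stat2, Irf2 and Irf3 differed between treatments by less than the spread of their arrays. Stat2, which acts below the type I receptor, measured 20.2, 29.2 and 65.1 with DEX and 32.4, 24.4 and 87.7 with vehicle at 6 hrs, and 79.5, 68.6 and 89.1 with DEX and 79.7, 77.7 and 65.6 with vehicle at 24 hrs. Irf2, an antagonist of Irf1 at shared sites, measured 10.4, 6.57 and 78.0 with DEX and 14.4, 10.8 and 58.4 with vehicle at 6 hrs, and 79.5, 60.5 and 78.2 with DEX and 80.5, 71.8 and 68.2 with vehicle at 24 hrs. Both genes were far lower on replicates 1 and 2 at 6 hrs than on every other array, with either treatment. Their group means at 6 hrs were below the minimum, 48.2 with vehicle and 38.2 with DEX for Stat2, and 27.9 and 31.65 for Irf2. Irf3, the factor that starts interferon production after nucleic acid sensing, measured 437, 446 and 437 with DEX and 325, 451 and 536 with vehicle at 6 hrs, and 345, 431 and 424 with DEX and 439, 436 and 389 with vehicle at 24 hrs. Its log2 differences were 0.04 and -0.08, with 95% intervals of -0.38 to 0.46 and -0.50 to 0.34 for this probe set. The other expressed probe sets of Irf3 gave 0.15 and 0.14 at 6 hrs and -0.39 and -0.34 at 24 hrs, and neither passed the threshold.

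Dhx58 and Trim25, both of the RIG-I pathway of RNA sensing, were expressed, and Ifih1 and Usp18 were not. Dhx58, also called LGP2, measured 45.7, 66.3 and 47.1 with DEX and 41.6, 61.7 and 31.6 with vehicle at 6 hrs. At 24 hrs the order was the opposite, with 37.4, 33.4 and 29.7 with DEX against 48.5, 47.8 and 62.5 with vehicle, all 3 DEX arrays lying below all vehicle arrays. Group means of Dhx58 reached the minimum only with DEX at 6 hrs (53.03) and with vehicle at 24 hrs (52.92). They were 44.97 with vehicle at 6 hrs and 33.52 with DEX at 24 hrs. Dhx58 thus entered the test through the groups whose high values make the opposite order, and its values lay around the minimum. The log2 difference was 0.27 (SE 0.25) at 6 hrs and -0.65 (SE 0.25) at 24 hrs, with limma adjusted p = 1.00 and 0.666, and the difference between the time points was -0.93 (SE 0.36) with an adjusted p of 1.00, or 0.281 with the pairs as a block. Trim25, the ubiquitin ligase that acts on RIG-I, measured 461, 577 and 198 with DEX and 531, 653 and 237 with vehicle at 6 hrs. At 24 hrs Trim25 measured 186, 196 and 214 with DEX and 171, 226 and 195 with vehicle, with a log2 difference of 0.02 (95% interval -0.91 to 0.94, or -0.25 to 0.29 within pairs).

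Of 13 antiviral effectors with a probe set of their own, 4 were expressed: Ifi35, Ifit2, Oas1a and Bst2. Ifi35, a leucine-zipper protein induced by interferon, measured 419.5, 444 and 433 with DEX and 368, 398 and 319 with vehicle at 6 hrs. At 24 hrs it measured 348.5, 442 and 414 with DEX and 256, 309 and 291 with vehicle. The groups did not overlap at either time, and Ifi35 was the only expressed member higher with DEX in 6 of 6 pairs, which 4.29% of all expressed probe sets were. Its log2 difference was 0.26 (SE 0.16) at 6 hrs, 0.49 (SE 0.16) at 24 hrs and 0.38 (SE 0.11) across both times, with limma adjusted p = 1.00, 0.479 and 0.311. Within pairs the adjusted p came to 0.0738 at 24 hrs and 0.0501 across both times, the lowest of any member there, and just short of the threshold. Its other 2 expressed probe sets gave 0.24 and 0.36 over both times and were higher with DEX in 5 of 6 pairs each.

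Oas1a, an enzyme that makes the second messenger of RNase L, measured 71.2, 69.9 and 95.8 with DEX and 64.5, 95.6 and 114 with vehicle at 6 hrs. At 24 hrs it measured 65.3, 60.07 and 87.3 with DEX and 64.6, 54.2 and 55.9 with vehicle, higher with DEX in 3 of 3 pairs though the groups overlapped. The log2 differences were -0.19 and 0.27 (SE 0.24 each, limma adjusted p = 1.00 at both times). Ifit2 and Bst2, a translation inhibitor and the surface protein tetherin, had log2 differences of 0.16 and -0.24 at 6 hrs and 0.07 and 0.16 at 24 hrs.

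**Figure D2:**
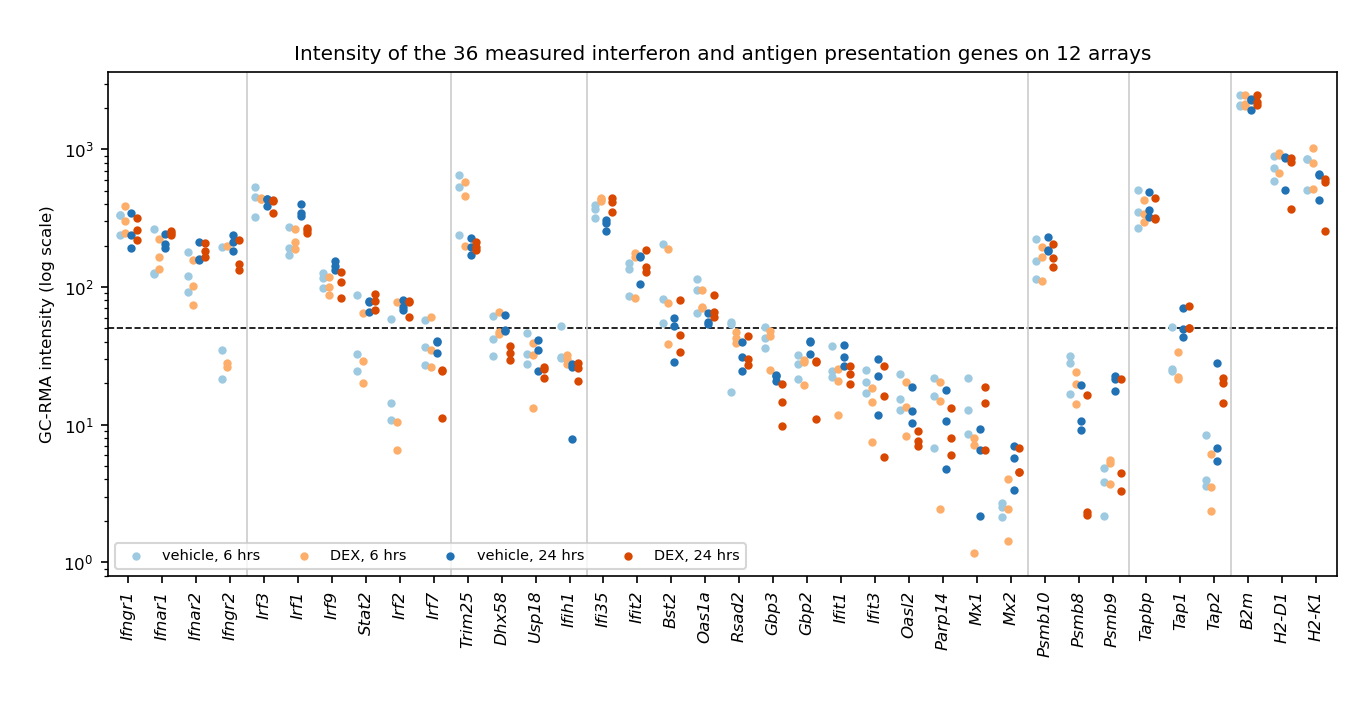
GC-RMA intensity on a log scale (vertical axis) of the representative probe set of each of the 36 measured members, with 3 arrays for each of the 4 groups; grey lines part the roles, from receptors on the left to class I molecules on the right, and the dashed line is the minimum of 50. Intensities of different probe sets are not on one scale, so columns are to be read within a gene. Most antiviral effectors lie below the line, and Ifngr2, Stat2 and Irf2 each split into 2 clusters at 6 hrs.

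There were 15 members that stayed below the minimum in all 4 groups: Irf7, Ifih1, Usp18, Ifit1, Ifit3, Oasl2, Rsad2, Mx1, Mx2, Parp14, Gbp2, Gbp3, Psmb8, Psmb9 and Tap2. Their group means were 2.47 to 43.1 and their single arrays 1.17 to 60.3, a range in which GC-RMA values are near background. Most lay lower with DEX: 13 of 15 at 6 hrs, 10 at 24 hrs and 12 across both times had a log2 difference below 0, where 48.6%, 59.6% and 55.9% of all 24204 probe sets below the minimum did. Over all 36 measured members 24 lay below 0 at 6 hrs, 20 at 24 hrs and 26 across both times, with a median of -0.128 over both times beside -0.031 for all probe sets of the array. Irf7, the factor that amplifies the interferon alpha response, was 24.9, 11.2 and 24.4 with DEX and 40.4, 39.5 and 33.2 with vehicle at 24 hrs. Ifit1, an RNA-binding antiviral protein, was 11.7, 25.3 and 20.8 with DEX and 22.4, 37.5 and 24.4 with vehicle at 6 hrs, and 23.4, 19.6 and 26.7 with DEX and 26.8, 37.98 and 30.9 with vehicle at 24 hrs. Over all probe sets below the minimum, the share lower in 6 of 6 pairs was not counted. Of the 15 members, Ifit1 and Psmb8 were lower with DEX in 6 of 6 pairs, with Psmb8 group means of only 6.96 to 25.3. None passed when all probe sets were tested without the minimum: the smallest adjusted p in limma was 1.00 at 6 hrs, 0.832 at 24 hrs and 0.986 across both times, and 0, 3 and 1 of the 15 had an unadjusted p under 0.05, beside 5.28%, 6.4% and 5.56% of all probe sets below the minimum. Irf7 and Ifit1 were picked for display here after their values were seen.

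Of the immunoproteasome subunits, which replace catalytic subunits of the ordinary proteasome, Psmb10 was expressed and Psmb8 and Psmb9 were not. Psmb10 measured 110.2, 165 and 196 with DEX and 114, 155 and 225 with vehicle at 6 hrs, and 163, 207 and 139 with DEX and 185, 182.5 and 231 with vehicle at 24 hrs. The log2 differences were -0.05 and -0.24 (SE 0.29 each, limma adjusted p = 1.00 at both times) and the groups overlapped at both.

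Tapbp, which holds class I molecules at the transporter, measured 296, 337 and 431.5 with DEX and 269, 349.9 and 509 with vehicle at 6 hrs, and 313, 443 and 318 with DEX and 363, 489 and 321 with vehicle at 24 hrs. The log2 difference was -0.05 and -0.12 (SE 0.27 each), lower with DEX in 3 of 3 pairs at 24 hrs. Tap1, a subunit of the peptide transporter, measured 21.6, 22.3 and 33.9 with DEX and 24.6, 25.2 and 51.2 with vehicle at 6 hrs. It was lower with DEX in 3 of 3 pairs there, by a log2 difference of -0.32 (SE 0.32, limma adjusted p = 1.00, or 0.402 with the pairs as a block), which was the most negative of the expressed members at that time. Both group means of Tap1 at 6 hrs were below the minimum, 33.7 with vehicle and 25.9 with DEX, so Tap1 entered the test through 24 hrs. At 24 hrs Tap1 measured 50.1, 72.7 and 50.7 with DEX and 49.9, 70.5 and 43.6 with vehicle, with a log2 difference of 0.09.

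The class I molecules B2m, H2-K1 and H2-D1 were above the minimum on every array. B2m, the light chain shared by all class I molecules, measured 2059, 2144 and 2485 with DEX and 2079, 2095 and 2489 with vehicle at 6 hrs. At 24 hrs B2m measured 2212, 2086 and 2466 with DEX and 2318, 1936 and 2271 with vehicle. The log2 differences were 0.0057 and 0.053 (SE 0.16 each), with 95% intervals of -0.34 to 0.35 and -0.29 to 0.40, so a change of B2m by 2-fold in either direction lay outside the interval at both times. H2-D1, a class I heavy chain, measured 673, 907 and 940.4 with DEX and 588, 730.1 and 902 with vehicle at 6 hrs, higher with DEX in 3 of 3 pairs with a log2 difference of 0.19 (SE 0.34, limma adjusted p = 1.00). At 24 hrs H2-D1 measured 870.0, 370.3 and 816 with DEX and 876, 504 and 870.1 with vehicle, lower with DEX in 3 of 3 pairs with a log2 difference of -0.18. H2-K1, the other heavy chain, differed by 0.06 and -0.35, and its next brightest probe set by 0.07 and -0.03. Most probe sets of H2-K1 and H2-D1, including the ones used here, carry names ending in x_at, which marks probes that can also match related transcripts, so the share of each gene in their signal is uncertain. The expressed H2-D1 probe set without that ending had the opposite signs, with -0.18 at 6 hrs and 0.20 at 24 hrs. Over the 7 expressed H2-D1 probe sets the log2 difference ran from -1.15 to 0.19 at 6 hrs and from -1.015 to 0.58 at 24 hrs.

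The share of variance between pairs ran from 45.19% to 98.55% over the 11 expressed heavy-chain probe sets. This share also holds the time point and the hybridization day, and noise alone gives a share above 0. There were 3 H2-D1 probe sets that were high on both arrays of replicate 4 at 6 hrs and of replicate 2 at 24 hrs, and low on the other 8. The first measured 239.7 with DEX and 251 with vehicle in the former pair, 285 and 245 in the latter, and 2.51 to 47.1 elsewhere. The second measured 286 and 271, then 235 and 218, and 21.6 to 65.2 elsewhere. The third measured 137 and 190.5, then 149 and 93.2, and 6.54 to 29.4 elsewhere. DEX and vehicle arrays of a pair thus went together in all 3. Another 3 probe sets of the same gene, among them the one given above with 370.3, had their lowest values of the 12 arrays with DEX in replicate 2 at 24 hrs, as had the H2-K1 probe set with 256. Class I heavy chains are highly polymorphic and CD1 mice are outbred; whether the cell isolations carried different class I alleles was not tested. Each of these 2 pairs was the only one on its hybridization day, so isolation and day cannot be told apart. Replicate 4 at 24 hrs and replicate 2 at 6 hrs were among the low arrays. The high values thus did not follow a replicate number across time points. Deviations from the group means of same-numbered, same-treatment arrays at 6 and 24 hrs correlated at -0.043 to 0.089 over expressed probe sets. Whether a number marks the same isolation at both times was not tested.

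**Figure D3:**
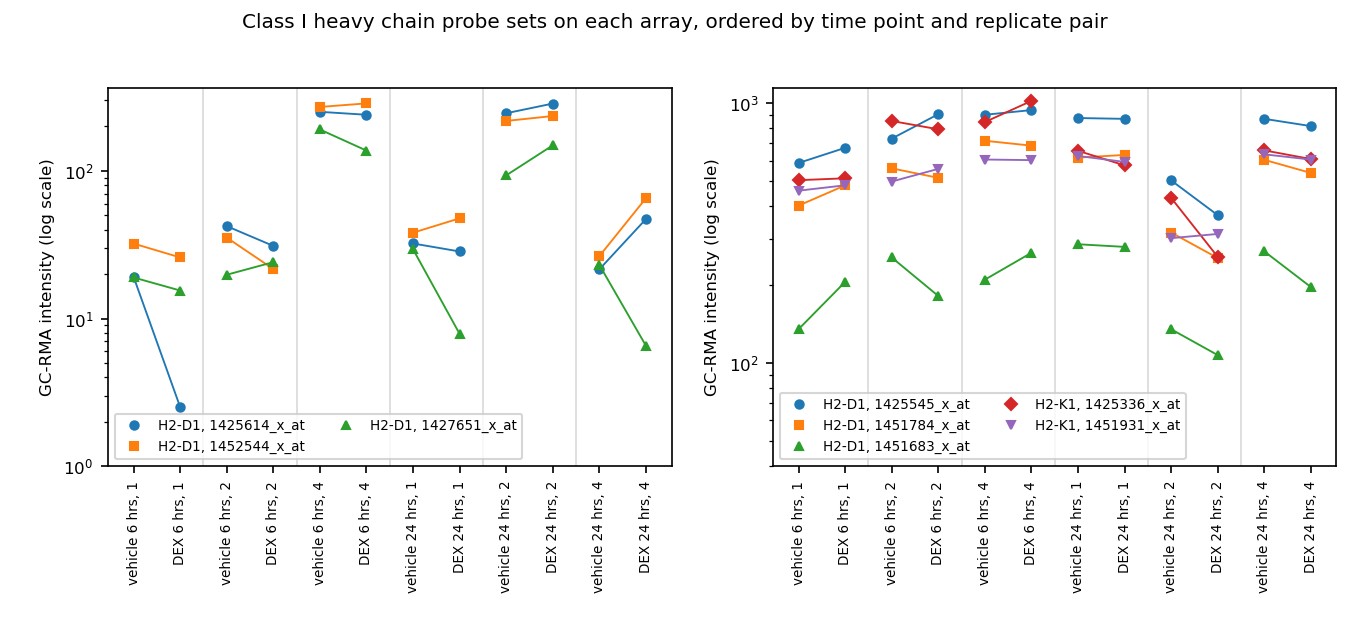
GC-RMA intensity on a log scale (vertical axis) of 8 class I heavy-chain probe sets on the 12 arrays, ordered along the horizontal axis by time point and pair, with lines joining the vehicle and DEX arrays of a pair. On the left, 3 H2-D1 probe sets are high only in replicate 4 at 6 hrs and replicate 2 at 24 hrs; on the right, 3 other H2-D1 and 2 H2-K1 probe sets are lowest or near lowest in replicate 2 at 24 hrs.

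Most of the variance of the members typically lay between pairs too, with time point and day included in it. The share of variance that lay between pairs had a median of 87.1% over the 41 member probe sets and 79.9% over all expressed probe sets. On the 4 arrays of replicates 1 and 2 at 6 hrs, 12 of the 41 member probe sets (29.27%) lay wholly apart from the other 8 arrays, compared with 42.86% of all expressed probe sets. Of these, 11 were lower there: Irf2 had 6.57 to 14.4 against 58.4 to 80.5, Ifngr2 21.4 to 35.1 against 132 to 240.3, and a second probe set of Tapbp 20.5 to 39.8 against 139 to 183. Trim25 was the one that was higher, with 461 to 653 against 171 to 237, while another Trim25 probe set was among the 11 lower ones, with 34.4 to 44.6 against 57.5 to 136. These are the arrays with the raised 3′ to 5′ Gapdh signal, and its part in these values was not tested. No hybridization day held both time points, so the levels at 6 and 24 hrs were not compared. Without the 4 arrays, 0 of 21 members passed in each comparison, as before.

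Other genes of the interferon response lay mostly below 0. Of 77 further interferon-stimulated genes 41 were expressed, and 9 of them had a log2 difference above 0 over both times, with a median of -0.14 beside -0.02 for all expressed probe sets. One passed the threshold over both times, where 0.747% of all expressed probe sets passed, and it fell: Rtp4, a chaperone of membrane receptors that interferon induces. Rtp4 measured 47.05, 56.6 and 38.04 with DEX and 57.4, 135.5 and 75.2 with vehicle at 6 hrs, and 11.0, 21.4 and 12.6 with DEX and 44.2, 44.3 and 80.2 with vehicle at 24 hrs. It was lower with DEX in 6 of 6 pairs and the groups did not overlap at either time. Rtp4 is named because it passed in these data, so this shared direction is no separate evidence. Its group means reached 50 only with vehicle, at 89.4 and 56.2 for 6 and 24 hrs, against 47.2 and 15.0 with DEX. Rtp4 thus entered the test through the groups where it was high, and its DEX values at 24 hrs were near background. The log2 difference was -0.84 (SE 0.37) at 6 hrs, -1.91 (SE 0.37) at 24 hrs and -1.38 (SE 0.26) across both times, with limma adjusted p = 1.00, 0.0776 and 0.0408, or 0.351, 0.0294 and 0.0171 with the pairs as a block. The call over both times was narrow. It was lost when any single array other than vehicle replicate 1 at 6 hrs or DEX replicate 2 at 24 hrs was left out, with adjusted p from 0.0589 to 0.133, and also without the minimum of 50, where the adjusted p was 0.151.

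**Figure D4:**
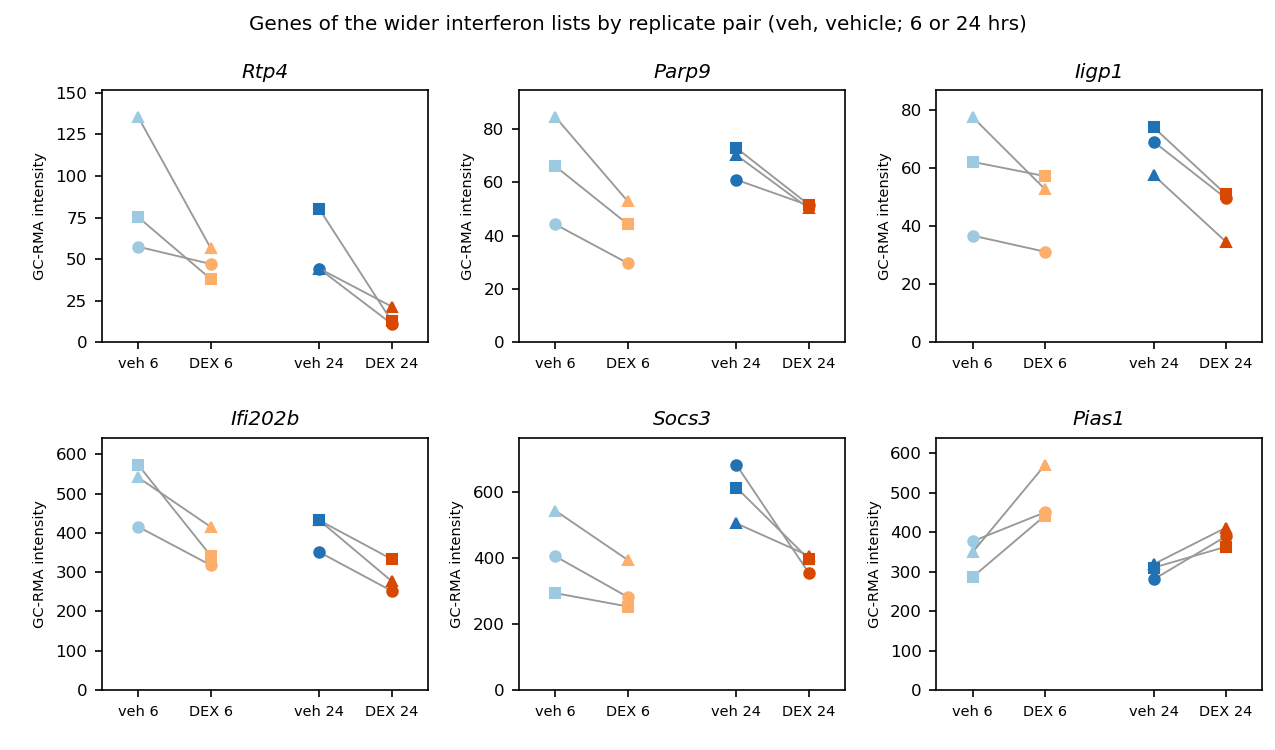
GC-RMA intensity on a linear scale (vertical axis) of 6 genes from the wider interferon lists at 6 and 24 hrs, with grey lines joining the vehicle and DEX arrays of a pair (circle, replicate 1; triangle, replicate 2; square, replicate 4). There are 5 genes lower with DEX in 6 of 6 pairs and Pias1 is higher in 6 of 6. The genes are shown because they passed the threshold in these data, so the shared direction of their pairs is no separate evidence.

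With the pairs as a block, where 3.2% of all expressed probe sets passed, 3 more genes of that list fell over both times, and the block of pairs was the only one of 22 alternatives that called them. Parp9, which forms a complex with an E3 ubiquitin ligase, measured 29.6, 52.9 and 44.3 with DEX and 44.2, 84.6 and 66.0 with vehicle at 6 hrs, and 51.4, 50.2 and 51.6 with DEX and 61.0, 70.2 and 72.9 with vehicle at 24 hrs. Iigp1, a GTPase that attacks the vacuoles of intracellular parasites, measured 31.2, 52.8 and 57.3 with DEX and 36.8, 77.7 and 62.2 with vehicle at 6 hrs, and 49.6, 34.6 and 51.0 with DEX and 69.2, 57.6 and 74.2 with vehicle at 24 hrs. Ifi202b, of the p200 family of DNA-binding proteins, whose probe set may also match its relatives, measured 318, 415.5 and 342 with DEX and 416, 541 and 573 with vehicle at 6 hrs, and 252, 277 and 333 with DEX and 351, 432 and 432 with vehicle at 24 hrs. Iigp1 reached the minimum of 50 only with vehicle, with group means of 58.9 and 67.0 at 6 and 24 hrs against 47.1 and 45.1 with DEX. Log2 differences over both times were -0.51, -0.44 and -0.50 for Parp9, Iigp1 and Ifi202b. In limma with pairs as a block the adjusted p was 0.0152, 0.0456 and 0.0264, and without the block 0.557, 0.994 and 0.213. With hybridization day as the block it was 0.234, 0.354 and 0.0783.

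Of 47 further genes of interferon signalling and nucleic acid sensing 27 were expressed, and none passed without the block. Within pairs, where 3.2% of all expressed probe sets passed over both times, Socs3 and Pias1 passed. Socs3, a feedback inhibitor of cytokine receptors, fell by 0.51 on the log2 scale over both times (adjusted p = 0.0448, limma with pairs as a block). Pias1, a SUMO ligase, rose by 0.44 (adjusted p = 0.0479 in the same fit). Each kept its direction in 6 of 6 pairs, which is no separate evidence, as both are named because they passed. Without the block the adjusted p was 0.484 for Socs3 and 0.199 for Pias1, and with hybridization day as the block 0.0712 and 0.0254. Of 42 further antigen presentation genes 20 were expressed, 0 passed with or without the block, and their median over both times was 0.0057 with 11 of 20 above 0.

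**Figure D5:**
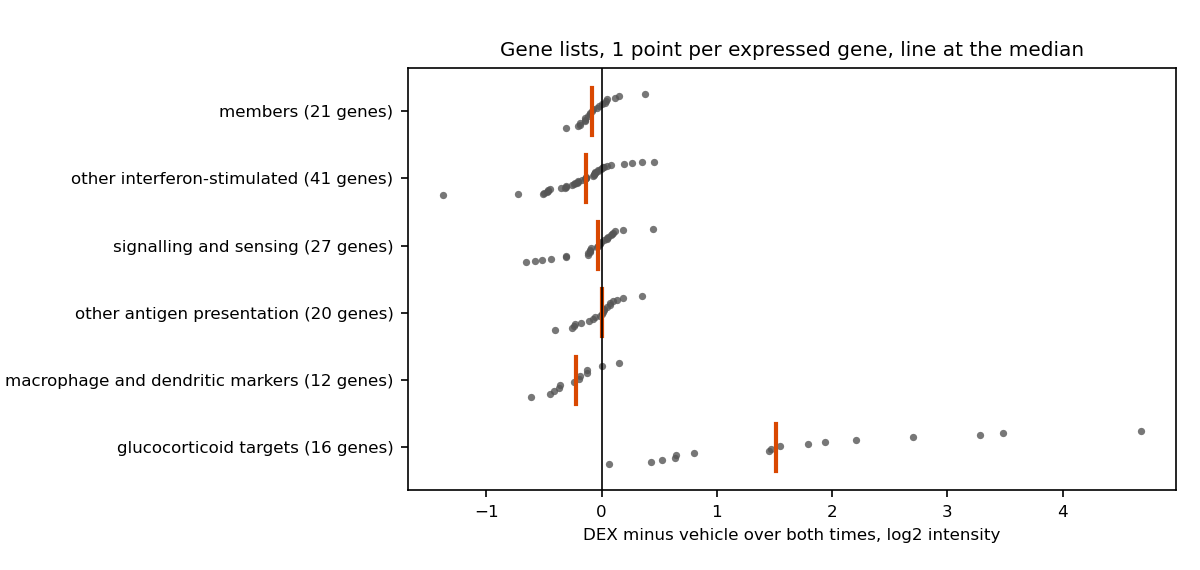
Log2 difference between DEX and vehicle over both times (horizontal axis) for the expressed genes of 6 lists, each point a gene and each vertical line the median of its list. Members lie close to 0 with a median of -0.087, the other interferon-stimulated genes reach down to Rtp4 at -1.38, and the glucocorticoid targets have a median of 1.51.

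Macrophage and dendritic cell markers lay mostly below 0 as well. Of the 12 expressed, 10 had a log2 difference below 0 over both times, with a median of -0.22 beside -0.02 for all expressed probe sets. None of the 12 passed the threshold with or without the block. Their summed intensity was 1106 to 2254 with vehicle and 1096 to 1898 with DEX at 6 hrs, and 1245 to 1555 with vehicle and 1071 to 1270 with DEX at 24 hrs. Their part in the values of the interferon genes was not tested, and in these bulk cultures fewer cells of a type and less RNA per cell cannot be told apart. All 17 chondrocyte markers lay above 0 over both times, with a median of 0.18, as did 7 of 11 fibroblast markers, with a median of 0.013. In these lists only Ucma and Postn passed, rising with the pairs as a block.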

How the data were processed

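RNA of 12 cultures was hybridized to MOE 430 2.0 arrays. The deposited table holds linear intensity values, which the authors background-corrected and normalized with GC-RMA in GeneSpring GX (GCRMA in the submitters' processing notes; its version was not given in the sources used here). Median intensity was 25.7 to 39.1 per array, and the number of arrays limits the precision. Values were taken to log2 without a pseudocount. Of 45101 probe sets, 34958 listed 1 gene symbol in the platform annotation, and only these named a gene; 4 listed a member among several symbols, 3 of them expressed, and are not attributed. The test took in 20897 probe sets whose mean reached 50 in 1 group or more.

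DEX was compared with vehicle with limma 3.58.1 in R 4.3.3 (lmFit, eBayes, 1 mean per group over all 12 arrays, no block), calling adjusted p (Benjamini-Hochberg) under 0.05. Each SE is limma's moderated one. Python 3.11.15, pandas 2.3.3 and matplotlib 3.10.9 served for tables and figures. The fits were tested on simulated data.

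Within a time point, arrays of one replicate number were treated as pairs: their deviations from the group means correlated at 0.681, 0.632 and 0.863 at 6 hrs and 0.158, 0.301 and 0.220 at 24 hrs. Unlike numbers 1 and 2 at 6 hrs, which share a hybridization day, correlated at 0.506 and 0.571, so these values may hold the day. The array files give 4 hybridization days, and no pair spans 2 of them.

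Values on every array are given for members past the threshold in any fit, the 3 expressed members with the largest rise and the 3 with the largest fall at each time point, and the member with the highest intensity in each role; from the wider lists, genes past the threshold are named. The members and all lists were chosen with earlier results of these data known. Alternatives covered the filter, pseudocount, normalization, blocks, a Welch t-test, 1 value per gene and leaving out arrays. Leaving out the 4 arrays of a day was chosen after seeing the data.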

Additional observations from a re-analysis of the deposited data

How the results depend on the processing

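The count of expressed members past the threshold was 0 in each of the 4 comparisons and under each of 25 alternative settings that gave a value, including each of the 12 fits without 1 array and the fit with the replicate pairs as a block. For the 16 members given in full, 1120 values under these settings held 86 changes of sign, none of them in a value past the threshold. Over both times the smallest adjusted p of a member was 0.311 without the block, 0.0501 with the pairs as a block and 0.0519 when the day was the block. A Welch t-test of DEX against vehicle was also run, where the methods name a Welch ANOVA. It gave 0, 0 and 1 members at the methods' own threshold for p (6 hrs, then 24 hrs, then both). Of all probe sets 0.608%, 1.82% and 1.58% passed there. After Benjamini-Hochberg adjustment it gave 0 members. Left out in turn, single arrays moved the median of the members from -0.187 to 0.184 at 6 hrs, lowest without vehicle replicate 1 and highest without vehicle replicate 4, and from -0.081 to 0.071 at 24 hrs.

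The counts over all probe sets, which are the background of the members, depended on the fit. In the order 6 hrs, 24 hrs and both they were 47, 60 and 156 without a block and 189, 449 and 668 with the pairs as a block. With the day as a block they were 198, 455 and 600, without the filter 18, 22 and 73, and with the Welch t-test 0, 0 and 38. Fitting each time point alone gave 0 and 163, and the fits within days gave 2 at 6 hrs and 83 at 24 hrs. Without single arrays they were 18 to 38, 16 to 88 and 90 to 156, and without the 4 arrays of replicates 1 and 2 at 6 hrs 48, 163 and 164. In that fit the 6 hrs groups held 1 array each, which was assumed to vary like the others. Of 420 values of the 6 named genes outside the member list 394 kept their side of the threshold and none reversed. Rtp4 over both times stayed past the threshold in 7 of 22 alternatives, with adjusted p from 0.0171 to 0.887. The cause of these differences was not tested. With 3 arrays per group and no block, even changes above 2-fold in low or pair-dependent members such as Irf2 and Ifngr2 could not be resolved. On the log2 scale, the limma interval of Irf2 without the block was -2.071 to 1.557 at 6 hrs and -1.837 to 1.791 at 24 hrs. That of Ifngr2 was -1.875 to 1.868 at 6 hrs and -2.248 to 1.495 at 24 hrs.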

Other observations

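Bst2 and Ifit2, expressed antiviral effectors, differed between pairs in opposite ways. Bst2, the virus tether tetherin, measured 188 with DEX and 206 with vehicle in replicate 4 at 6 hrs and 28.5 to 81.6 on the other 10 arrays. Ifit2 was low in the same pair, with 83.9 and 86.1, and measured 105.1 to 186 elsewhere. That pair was the only one on its hybridization day, so cell isolation and day cannot be told apart.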
